A study of Mus musculus with 8 samples.

Results

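Heterotrimeric G proteins carry signals from receptors on the cell surface to enzymes and channels inside the cell, and RGS proteins (regulators of G protein signalling) switch them off. Genes of both kinds were taken by symbol: Rgs followed by a digit, and Gnai, Gnaq, Gna1, Gnao, Gnal, Gnat, Gnaz, Gnb or Gng alone or with digits, with Rgs5 and Gnas outside the rule. The rule matched 52 symbols, of which Rgs21 was listed without a value. The remaining 51 genes, of 17401 with values, were described in islets of ob/ob and ob/+ mice. They comprised 8 α subunits of the Gi/o class, 4 of the Gq/11 class, 2 of the G12/13 class and 1 of the Gs type, 5 β and 10 γ subunits, and 8 R4, 4 R7, 3 R12 and 3 RZ family RGS genes. The anchors Rgs7bp and Rgs9bp and the gene Rgs22 made up the rest.

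A G protein is built of an α subunit, which binds GTP when a receptor is activated, and a tightly joined β and γ pair. Both parts then act on effectors, until the α subunit splits its GTP, a step that RGS proteins speed up. In beta cells, Gs proteins raise cyclic AMP and with it insulin secretion, Gi/o proteins restrain secretion for adrenaline, somatostatin and galanin, and Gq/11 proteins act through phospholipase C for acetylcholine and fatty acids.

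RNA from islets of C57BL/6 mice aged 12 weeks was sequenced in 4 libraries of genotype ob/+ and 4 of genotype ob/ob, with no treatment named. The ob allele disrupts Lep, the gene of the fat cell hormone leptin, in the whole animal. Loss of both copies is known to cause overeating, obesity and insulin resistance, while the ob/+ controls carry a single ob allele. Whether the libraries are separate mice is not stated in the labels, so the p-values cover variation from library to library, some of which may be technical.

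Values are FPKM (fragments scaled to transcript length and library total, a unit inferred from the values), so levels of different genes can be compared per length. Between 11363 and 11883 genes per library were at 1 FPKM or more, and absolute depth is unknown. Insulin transcripts took 42.0% to 54.3% of summed FPKM in ob/+ and 57.1% to 65.6% in ob/ob. Transcripts of 21 acinar (digestive enzyme) markers took 13.8% ± 7.55 (SD, n = 4) in ob/+ and 6.57% ± 3.23 (SD, n = 4) in ob/ob, with ob/+ 4 at 24.5% (exact two-sided permutation p = 0.0857, where the smallest possible is 0.0286). Alpha cell markers summed to 25247 to 31791 FPKM in ob/+ and 8666 to 12039 in ob/ob, and delta and PP cell markers to 9862 to 13331 and 2570 to 4073. In bulk RNA, fewer cells of a type and less RNA per cell cannot be told apart, and what these markers have to do with the differences below was not tested.

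Of the 51 genes, 32 were at 1 FPKM or more in all 8 libraries, 19 averaged 10 FPKM or more and 8 averaged 50 FPKM or more: Gnai2, Gnao1, Gnb1, Gnb2, Gng12, Gng4, Gng5 and Rgs2. A further 14 stayed under 1 FPKM in every library. The filter of 1 FPKM in at least 4 libraries let 35 genes into the test, and 16 lay below it. Gna14 passed it through the ob/ob libraries alone and Gng3 through the ob/+ libraries alone.

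By limma on log2(FPKM + 1), with Benjamini-Hochberg adjustment over 11747 tested genes and a threshold of 0.05, 12 of the 35 tested genes changed (34.3%), against 18.8% of all tested genes. The cone α subunit Gnat2, Gna14, the γ subunits Gng12 and Gng2, Rgs9 and Rgs16 were higher in ob/ob, which is 6 genes, where 8.21% of all tested genes were called higher. The α subunits Gnai2 and Gnai1, the β subunit Gnb1, the γ subunits Gng4 and Gng3, and Rgs3 were lower, also 6 genes, where 10.6% of all were called lower. The groups did not overlap for these 12 genes and overlapped for the other 23, while 20.5% of all tested genes had groups that did not overlap. These counts include Gna14 and Gng3, whose entry through 1 group alone built in a difference. The median log2 fold change was -0.08 over the 35 genes and -0.07 over all tested genes.

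**Figure D1:**
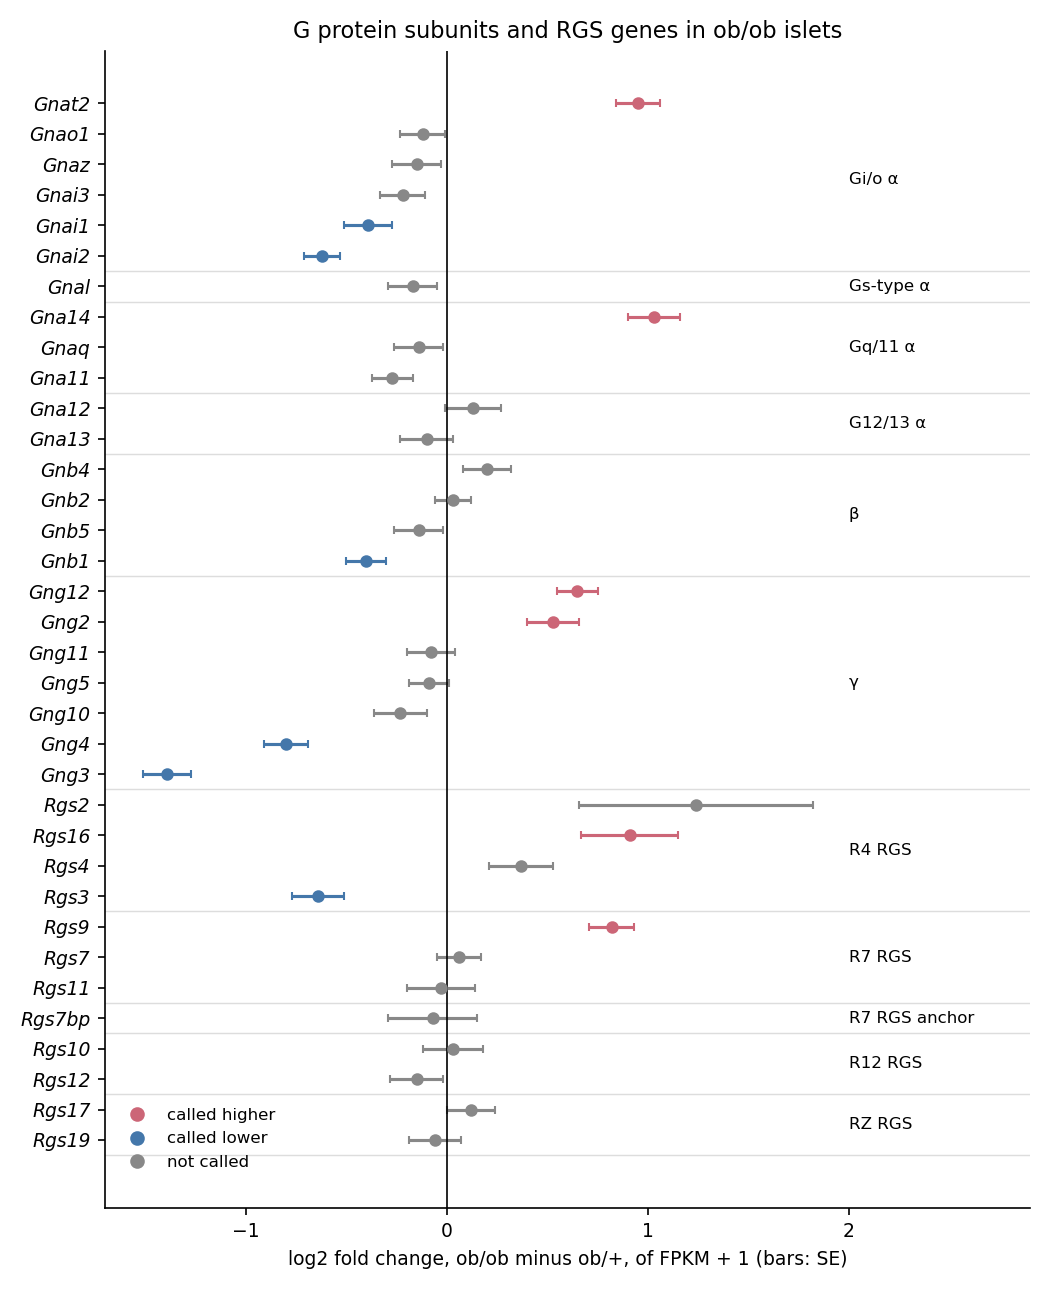
Log2 fold change of FPKM + 1 (ob/ob minus ob/+, x axis) with its standard error (bars) for the 35 tested genes, ordered by class; red points were called higher, blue points lower and grey points neither. The Gi/o α, γ and R4 classes hold calls in both directions, and Gng3 at -1.39 and Rgs2 at 1.24 are the extremes.

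The split of calls depended on the library scaling. It was 6 higher and 6 lower (50% higher) as deposited, and 46.2% of 13 calls were higher with median centring and with upper-quartile scaling. Scaling without the 10 most abundant genes gave 63.6% higher of 11 calls, and scaling without the acinar markers 20.8% of 24. Over all tested genes, the last of these moved the median from -0.07 to -0.32. Summed FPKM as deposited was 820968 to 880570 in ob/+ and 920734 to 1004230 in ob/ob. That scaling sets the sums of the other genes equal, so it takes in this difference in totals as well as the acinar share. All 12 genes kept their direction under the 5 scalings, and 9 kept their call, the exceptions being Gnai1, Gnb1 and Rgs16.

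**Figure D2:**
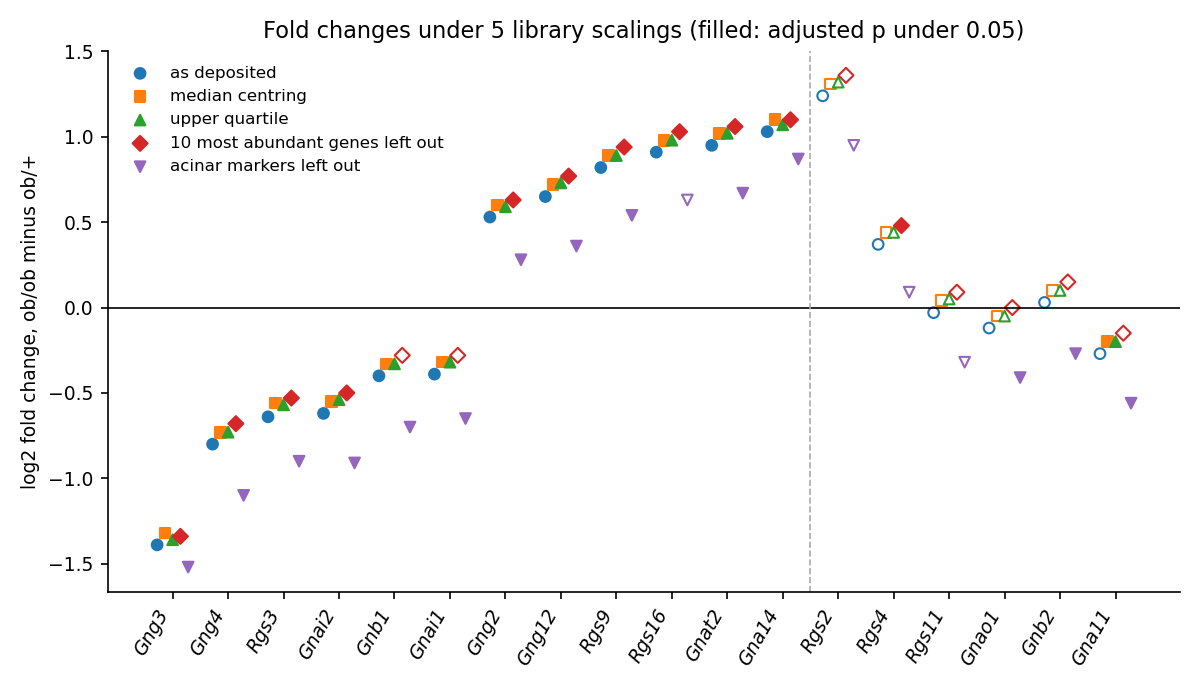
Log2 fold change (y axis) of the 12 changed genes and, right of the dashed line, 6 others under 5 library scalings (marker shapes); filled markers have an adjusted p under 0.05. The scaling to the sum without the acinar markers, which also evens out unequal totals, moves each gene down, and no gene left of the line crosses 0.

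With Gnas outside the rule, Gnal alone stood for the Gs type. Gi/o α subunits, which lower cyclic AMP and act on potassium and calcium channels, made up the most abundant α class of the set. Their summed level was 323 ± 18.2 FPKM (SD, n = 4) in ob/+ and 255 ± 18.6 (SD, n = 4) in ob/ob, a ratio of 0.789 that was 0.643 with the acinar markers left out of the scaling. Gnai2, a ubiquitous inhibitory α subunit, and Gnai1, its close relative, fell, while Gnat2, the transducin α subunit known from cone photoreceptors, rose.

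Gnai2 (GRCm38 chromosome 9, 107614125 to 107635367, minus strand) was at 195, 177, 171.5 and 180.6 FPKM in ob/+ 1 to 4 and at 112.6, 130.1, 126.4 and 102.9 FPKM in ob/ob 1 to 4. Each ob/ob library lay below each ob/+ library, and the mean was 1.53-fold lower (181 ± 10.1 against 118 ± 12.5 FPKM, SD, n = 4 each). Its log2 fold change was -0.62 ± 0.09 (SE; limma adjusted p = 2.09e-05). Gnai1 (chromosome 5, 18265135 to 18360355, minus strand) was far less abundant, at 7.52, 8.72, 9.89 and 8.51 FPKM in ob/+ and 7.07, 5.92, 6.94 and 5.61 FPKM in ob/ob. The groups came close without touching, at 7.52 in ob/+ 1 and 7.07 in ob/ob 1, and the log2 fold change was -0.39 ± 0.12 (SE; limma adjusted p = 0.0267). The Gnai1 call ended under 6 of 20 alternatives (other scalings, filters, pseudocounts, models and left-out libraries; adjusted p up to 0.231), among them leaving out ob/+ 2 (adjusted p = 0.056), ob/+ 3 (0.13), ob/ob 2 (0.0926) or ob/ob 4 (0.11).

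Gnat2 (chromosome 3, 108092789 to 108101432, plus strand) was at 9.66, 9.63, 9.22 and 9.59 FPKM in ob/+ and at 20.1, 19.39, 17.21 and 20.58 FPKM in ob/ob. The ob/+ libraries lay within a narrow band and every ob/ob library far above it. The mean rose 2.03-fold, from 9.52 ± 0.205 to 19.3 ± 1.49 FPKM (SD, n = 4 each), with a log2 fold change of 0.95 ± 0.11 (SE; limma adjusted p = 4.75e-07). The rod transducin Gnat1 and the taste α subunit Gnat3 (gustducin) reached at most 0.13 and 0.2 FPKM and were listed at 0 in 4 and 5 libraries. Within single libraries, a ratio that no scaling touches, Gnat2 was at 0.0527 ± 0.00218 of Gnai2 in ob/+ and 0.166 ± 0.0288 in ob/ob (SD, n = 4 each; a pair chosen after the values were seen). Gnat2 lies next to Gnai3 on chromosome 3 (108107280 to 108146146, minus strand), which was at 21.8 ± 2.23 and 18.5 ± 1.72 FPKM (SD, n = 4 each) without passing the test (limma adjusted p = 0.167).

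The next most abundant Gi/o member, Gnao1 (Go, an α subunit abundant in neurons and endocrine cells), was at 84.69, 88.27, 95.78 and 64.74 FPKM in ob/+ and at 73.67, 78.71, 86.06 and 66.41 FPKM in ob/ob. These values overlapped widely (log2 fold change -0.12 ± 0.11 SE, limma adjusted p = 0.505). Gnaz, the α subunit that pertussis toxin does not modify, also overlapped, at 19 ± 2.83 and 16.9 ± 1.69 FPKM (SD, n = 4 each; limma adjusted p = 0.418). In the summed level of the class, Gnai2 took 56.1% ± 3.93 in ob/+ and 46.1% ± 1.94 in ob/ob, Gnao1 25.7% ± 3.06 and 29.8% ± 1.23, and Gnat2 2.95% ± 0.193 and 7.63% ± 1.1 (SD, n = 4 each).

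**Figure D3:**
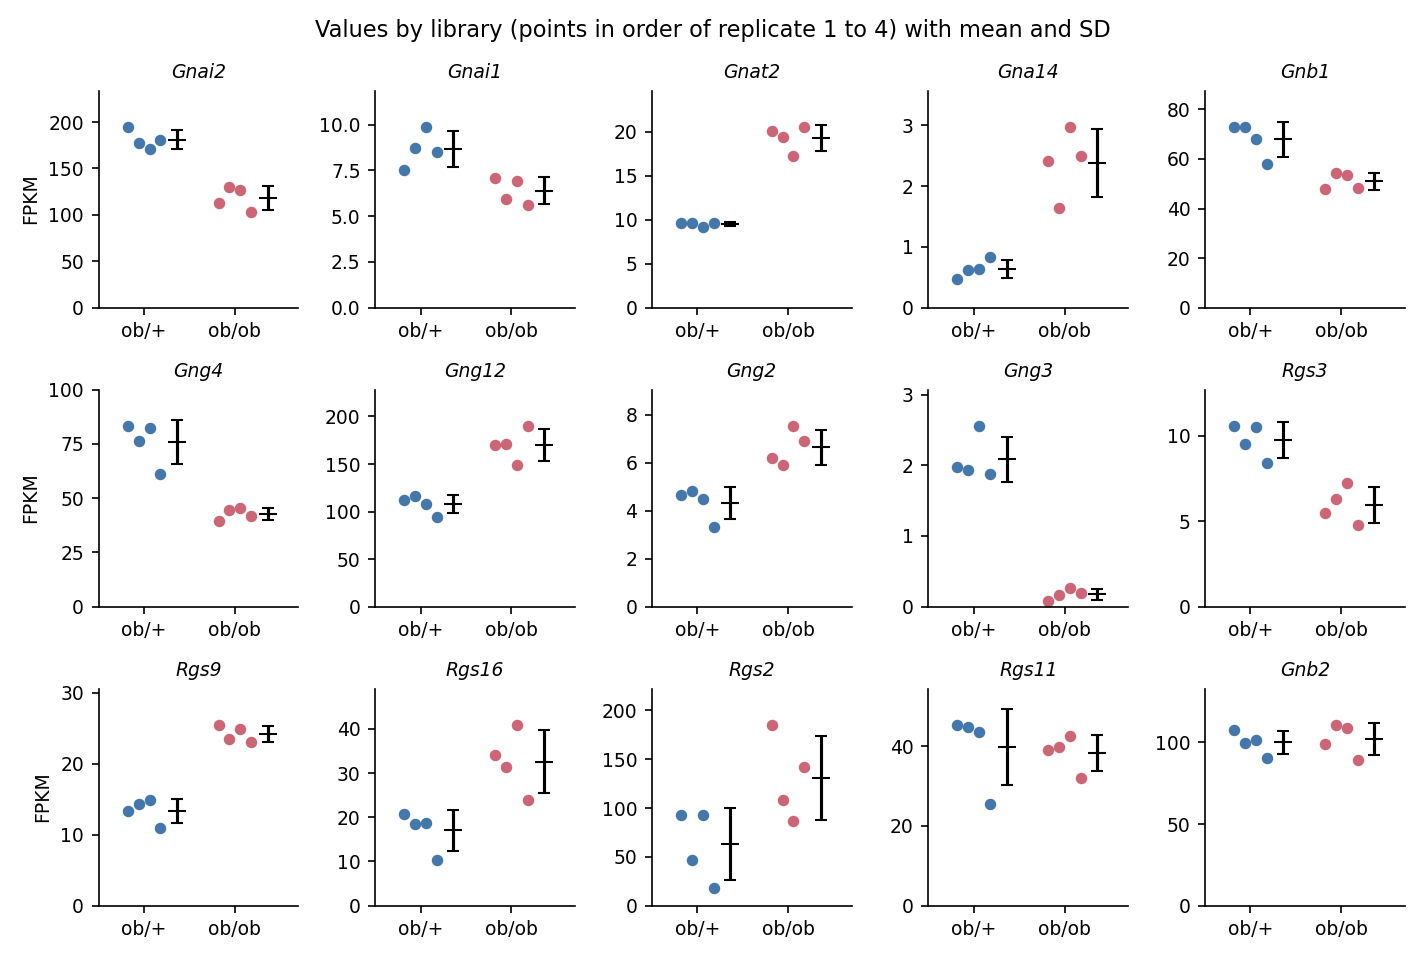
FPKM (y axes, from 0) of the 12 changed genes and of Rgs2, Rgs11 and Gnb2 in each library (points, replicate 1 to 4 from left to right), with the mean and SD of each group in black. The groups are apart in the first 12 panels, and those of Rgs2, Rgs11 and Gnb2 overlap.

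Among Gq/11 α subunits, which activate phospholipase C, no abundant member was called and the scarce Gna14 rose. Gna14 (chromosome 19, 16435762 to 16610820, plus strand) was at 0.47, 0.62, 0.64 and 0.83 FPKM in ob/+ and at 2.41, 1.64, 2.98 and 2.5 FPKM in ob/ob. Its mean was 3.72-fold higher (0.64 ± 0.148 to 2.38 ± 0.555 FPKM, SD, n = 4 each), with a log2 fold change of 1.03 ± 0.13 (SE; limma adjusted p = 2.95e-06). Because it was let into the test by the ob/ob libraries alone, a difference was built into its entry and the p-value is no support for it.

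Gna14 still made up a small share of the class, 1.3% ± 0.472 in ob/+ and 5.29% ± 1.19 in ob/ob (SD, n = 4 each). Its neighbour on chromosome 19, Gnaq (16132831 to 16387463, plus strand), was at 17.7 ± 3.06 and 15.8 ± 0.997 FPKM (SD, n = 4 each; limma adjusted p = 0.466). Gna11, the most abundant of the class, was at 34.39, 34.42, 33.02 and 27.9 FPKM in ob/+ and at 25.99, 28.32, 27.45 and 24.95 FPKM in ob/ob. Only ob/+ 4 fell inside the ob/ob range, and the log2 fold change of -0.27 ± 0.10 (SE) missed the threshold (limma adjusted p = 0.0689). It passed at -0.34 without ob/+ 4 (limma adjusted p = 0.00211) and at -0.20 with median centring (limma adjusted p = 0.0285). Gna15, known from blood cells, reached at most 0.44 FPKM.

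The G12/13 α subunits, which act on the small GTPase RhoA through its exchange factors, showed no called change. Gna12 was at 11.4 ± 2.58 and 12.3 ± 1.3 FPKM (limma adjusted p = 0.561) and Gna13 at 7.06 ± 1.47 and 6.42 ± 0.416 FPKM (SD, n = 4 each; limma adjusted p = 0.642). Each turned in sign under at least 1 other scaling. The Gs-type member Gnal, the olfactory α subunit that activates adenylyl cyclase, was scarce, at 1.58 ± 0.186 and 1.3 ± 0.128 FPKM (SD, n = 4 each; limma adjusted p = 0.352).

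In the β class, Gnb1 fell and its near relative Gnb2 was not called. Gnb1 (chromosome 4, 155491361 to 155559269, plus strand) was at 73.02, 72.75, 67.95 and 57.93 FPKM in ob/+ and at 47.96, 54.2, 53.52 and 48.2 FPKM in ob/ob. All ob/ob libraries were below all ob/+ libraries, the closest being ob/+ 4 and ob/ob 2, and the log2 fold change was -0.40 ± 0.10 (SE; limma adjusted p = 0.00479). Scaled without the 10 most abundant genes it was -0.28 and the call ended (limma adjusted p = 0.138).

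Gnb2 (chromosome 5, 137528127 to 137533510, minus strand), the most abundant β subunit, was at 107.8, 99.87, 101.5 and 90.43 FPKM in ob/+ and at 99, 110.8, 108.5 and 89.33 FPKM in ob/ob. Its groups overlapped over almost their whole range (log2 fold change 0.03 ± 0.09 SE, limma adjusted p = 0.876), though with the acinar markers left out of the scaling it was -0.27 and passed (limma adjusted p = 0.0156). The ratio of Gnb2 to Gnb1 within a library, also chosen after the values were seen, was 1.48, 1.37, 1.49 and 1.56 in ob/+ and 2.06, 2.05, 2.03 and 1.85 in ob/ob. The lowest ob/ob ratio exceeded the highest ob/+ ratio. Gnb1 took 38% ± 1.19 of the summed β level in ob/+ and 31.3% ± 0.838 in ob/ob (SD, n = 4 each).

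Of the remaining β subunits, Gnb5, the partner of R7 family RGS proteins, was at 8.3 ± 0.765 and 7.41 ± 0.387 FPKM (SD, n = 4 each; limma adjusted p = 0.423). Gnb4 was at 2.1 ± 0.169 and 2.58 ± 0.422 FPKM (SD, n = 4 each; limma adjusted p = 0.283), and Gnb3, the β subunit of cones, reached at most 0.18 FPKM.

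The γ subunits, which anchor the β and γ pair in the membrane, held calls in both directions among their most abundant members. Gng12 rose and Gng4 fell, so that their order of abundance, which was Gng12 above Gng4 in all 8 libraries, widened. Summed over the class, the level was 288 ± 27.1 FPKM in ob/+ and 310 ± 12.5 in ob/ob (SD, n = 4 each), a ratio of 1.08 that was 0.878 with the acinar markers left out of the scaling.

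Gng12 (chromosome 6, 66896397 to 67021350, plus strand) was at 112.6, 116.3, 108.1 and 94.22 FPKM in ob/+ and at 169.5, 171, 149.4 and 190.3 FPKM in ob/ob. The lowest ob/ob library lay well above the highest ob/+ library. It rose 1.58-fold, from 108 ± 9.66 to 170 ± 16.7 FPKM (SD, n = 4 each), with a log2 fold change of 0.65 ± 0.10 (SE; limma adjusted p = 1.58e-05).

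Gng4 (chromosome 13, 13784059 to 13827896, plus strand), known mainly from neurons, was at 83.35, 76.53, 82.51 and 61.09 FPKM in ob/+ and at 39.43, 44.55, 45.6 and 41.65 FPKM in ob/ob. Even ob/+ 4, the lowest of its group, was above every ob/ob library. The mean was 1.77-fold lower (75.9 ± 10.3 to 42.8 ± 2.8 FPKM, SD, n = 4 each), with a log2 fold change of -0.80 ± 0.11 (SE; limma adjusted p = 3.34e-06). The ratio of Gng12 to Gng4 was 1.35, 1.52, 1.31 and 1.54 in the ob/+ libraries and 4.3, 3.84, 3.28 and 4.57 in the ob/ob libraries. As shares of the class, Gng12 took 37.5% ± 0.841 and 54.8% ± 3.73, and Gng4 26.3% ± 1.87 and 13.8% ± 1.1 (SD, n = 4 each). All 4 tested delta and PP cell markers and 5 of 6 alpha cell markers were called lower in the same libraries, and the remaining alpha cell marker, Ttr, was called higher. Of 8 beta cell markers, 3 were called lower (Mafa, Slc2a2 and Ucn3) and 2 higher (Ins2 and Iapp). The part of these markers in the Gng4 difference was not tested.

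**Figure D4:**
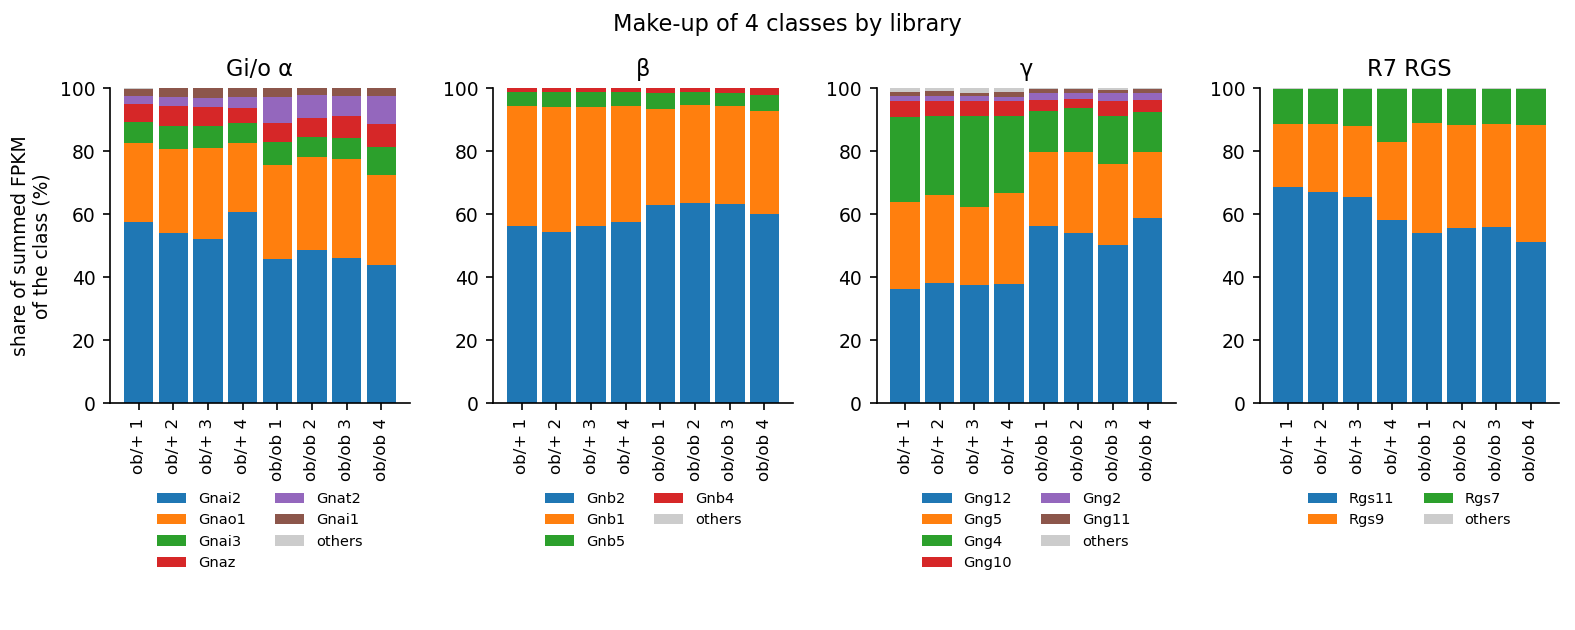
Share of the summed FPKM of the Gi/o α, β, γ and R7 RGS classes (y axes, %) held by each gene in each library (bars); genes averaging under 1% are pooled in grey. Gng4 gives way to Gng12, Gnb1 to Gnb2 and Rgs11 to Rgs9 in the ob/ob bars, and Gnat2 widens from 2.95% to 7.63%.

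The promoters of Gng4 and Gng12 are printed because these are the abundant γ genes that moved in opposite directions. Each is 250 bases before the RefSeq start (build GRCm38.p6), 5′ to 3′ on the plus strand, at chr13:13783809-13784058 for Gng4 and chr6:66896147-66896396 for Gng12.
Gng4: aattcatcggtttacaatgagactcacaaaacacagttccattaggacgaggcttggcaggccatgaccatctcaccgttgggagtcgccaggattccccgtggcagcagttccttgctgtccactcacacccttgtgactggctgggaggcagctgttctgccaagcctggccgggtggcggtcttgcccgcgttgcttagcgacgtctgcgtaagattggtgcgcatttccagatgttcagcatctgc
Gng12: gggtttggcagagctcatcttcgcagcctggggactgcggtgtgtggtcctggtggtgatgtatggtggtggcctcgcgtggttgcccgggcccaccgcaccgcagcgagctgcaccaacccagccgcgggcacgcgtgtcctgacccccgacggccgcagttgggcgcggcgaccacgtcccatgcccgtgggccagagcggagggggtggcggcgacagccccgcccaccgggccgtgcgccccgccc
The Gng4 window has 56.4% G and C and the Gng12 window 74.4%. Neither held the cyclic AMP response element TGACGTCA, its core TGACG or the E-box CACGTG on either strand, so that neither is printed with capitals. RefSeq gives Gng4 and Gng12 further start sites, which are not shown. RefSeq windows (250 bases before to 50 after a start) were found for 37 of the 51 genes, 47 windows in all. None held TGACGTCA (1.79% of 32851 windows of all genes did), 12.8% held CACGTG (7.15% of all) and 21.3% held TGACG (20.8% of all), the core being counted also inside the whole element. No window of the 6 genes called higher held CACGTG or TGACG, and of the 5 genes called lower that had a window 1 held CACGTG (Gnai1) and 2 held TGACG (Gnb1 and a second start of Gng4).

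Gng2 (chromosome 14, 19872559 to 19977627, minus strand), a widely expressed γ subunit, rose from a lower base. It was at 4.65, 4.82, 4.51 and 3.33 FPKM in ob/+ and at 6.22, 5.92, 7.55 and 6.9 FPKM in ob/ob, without overlap. The mean was 1.54-fold higher, with a log2 fold change of 0.53 ± 0.13 (SE; limma adjusted p = 0.0041). Of its exonic bases 20.4% are shared with Gm48283, a noncoding gene on the other strand, and whether counting used the strand is not given in the sources used here.

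Gng3 (chromosome 19, 8836933 to 8839194, minus strand), a neuronal γ subunit, fell nearly to 0. It was at 1.98, 1.94, 2.56 and 1.87 FPKM in ob/+ and at 0.08, 0.16, 0.27 and 0.2 FPKM in ob/ob. The mean was 11.8-fold lower (2.09 ± 0.318 to 0.177 ± 0.0793 FPKM, SD, n = 4 each), with a log2 fold change of -1.39 ± 0.12 (SE; limma adjusted p = 6.72e-09) that understates the ratio at these low levels. Gng3 was let into the test by the ob/+ libraries alone, so, as for Gna14, a difference was built into its entry and the p-value is no support for it. Gng3 shares 24.2% of its exonic bases with Bscl2, which lies on the other strand and was at 28.2 ± 1.82 and 33.2 ± 2.14 FPKM (SD, n = 4 each; limma adjusted p = 0.114).

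Markers of neurons and glia moved with Gng3. All 5 tested markers of 9 with values were called lower, and the list summed to 62.9 to 85.1 FPKM in ob/+ and 28.5 to 32.5 in ob/ob. Of the 5, Sox10 was let into the test by the ob/+ libraries alone, so its call is no support for a difference. The entry of Prph too rested mainly on ob/+, since in ob/ob it reached 1 FPKM only in ob/ob 3. Prph, an intermediate filament protein of peripheral neurons, was at 7.88, 6, 8.45 and 6.5 FPKM in ob/+ and 0.22, 0.96, 1.11 and 0.46 FPKM in ob/ob, while Chat, the enzyme that makes acetylcholine, was at 0.43 FPKM or less and at 0 in ob/ob 2. Th and Uchl1, also on the list, are known from islet endocrine cells too and made up most of its summed level. Th was at 24.7 ± 5.32 and 17 ± 1.85 FPKM in ob/+ and ob/ob, and Uchl1 at 32.9 ± 4.63 and 10.9 ± 0.949 (SD, n = 4 each). The part of the listed markers in the Gng3 difference was not tested.

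The other γ subunits were not called. Gng5, one of the abundant ones, was at 78.5 ± 7.77 and 73.8 ± 6.39 FPKM (SD, n = 4 each; limma adjusted p = 0.584), and Gng10 and Gng11 differed by log2 fold changes of -0.23 and -0.08 (limma adjusted p = 0.215 and 0.696). Gng10 shares 72.0% of its exonic bases with Gm20503 on the same strand, so its values are uncertain. Gng7, a γ subunit known from the striatum, lay just under the filter at 1.04, 0.91, 0.97 and 0.94 FPKM in ob/+ and 0.73, 0.57, 0.67 and 0.6 FPKM in ob/ob, and its groups did not overlap. Gng8 and Gng13, known from olfactory and taste cells, reached at most 0.25 and 0.85 FPKM.

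The R4 family holds small RGS proteins that act on Gi/o and Gq α subunits. Its summed level, 103 ± 39.8 FPKM in ob/+ and 187 ± 36.8 in ob/ob (SD, n = 4 each, ratio 1.82), rested mainly on Rgs2. Rgs16 rose and Rgs3 fell, and Rgs2 had the highest log2 fold change of the family without passing the test.

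Rgs16 (chromosome 1, 153740349 to 153745468, plus strand), which acts on Gi/o and Gq α subunits, was at 20.83, 18.5, 18.71 and 10.31 FPKM in ob/+ and at 34.22, 31.28, 40.97 and 23.86 FPKM in ob/ob. The groups were apart, with ob/+ 4 and ob/ob 4 the lowest of each. The mean was 1.91-fold higher (17.1 ± 4.64 to 32.6 ± 7.09 FPKM, SD, n = 4 each), with a log2 fold change of 0.91 ± 0.24 (SE; limma adjusted p = 0.0337). The call ended under 7 of 20 alternatives, with adjusted p from 0.0511 to 0.124, among them leaving out ob/+ 2, ob/+ 3, ob/ob 1, ob/ob 2 or ob/ob 3.

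Rgs3 (chromosome 4, 62559847 to 62704001, plus strand), a longer member of the family, was at 10.59, 9.49, 10.52 and 8.4 FPKM in ob/+ and at 5.49, 6.31, 7.22 and 4.8 FPKM in ob/ob. No ob/ob library reached the lowest ob/+ library. It fell 1.64-fold (log2 fold change -0.64 ± 0.13 SE, limma adjusted p = 0.000758). The ratio of Rgs16 to Rgs3, chosen after the values were seen, was 1.97, 1.95, 1.78 and 1.23 in ob/+ and 6.23, 4.96, 5.67 and 4.97 in ob/ob.

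Rgs2 (chromosome 1, 143999338 to 144004161, minus strand), a selective brake on Gq α subunits and a known early response gene, was the most variable of the abundant members. It was at 93.26, 46.96, 92.89 and 18.28 FPKM in ob/+ and at 185.3, 108.3, 86.6 and 141.6 FPKM in ob/ob. A pair of ob/+ libraries exceeded ob/ob 3, and the libraries of one group differed among themselves as much as the group means did. The means were 62.8 ± 36.8 and 130 ± 43 FPKM (SD, n = 4 each), and the log2 fold change was 1.24 ± 0.58 (SE; limma adjusted p = 0.21). It was 0.75 without ob/+ 4 (limma adjusted p = 0.177) and passed the test only without the robust option (limma adjusted p = 0.0356).

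Immediate early genes, which cells switch on within minutes of a stimulus, also varied within ob/ob. Of 10 tested genes on that list 2 were called higher, Fos and Nr4a2, and the list summed to 54.7 to 102 FPKM in ob/+ and 97.5 to 650 in ob/ob. Fos was at 94.28, 166.6, 36.57 and 14.05 FPKM in ob/ob 1 to 4, an order that Rgs2, lowest in ob/ob 3 and second highest in ob/ob 4, did not follow. The part of these genes in the Rgs2 values was not tested.

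The promoters of Rgs16 and Rgs2, the R4 genes with the largest fold changes among those tested, are printed with the core TGACG in capitals (CGTCA where it lies on the other strand). Both are the 250 bases before the RefSeq start (GRCm38.p6), 5′ to 3′ in the direction of the gene, at chr1:153740103-153740352 on the plus strand for Rgs16 and chr1:144004150-144004399 on the minus strand for Rgs2.
Rgs16: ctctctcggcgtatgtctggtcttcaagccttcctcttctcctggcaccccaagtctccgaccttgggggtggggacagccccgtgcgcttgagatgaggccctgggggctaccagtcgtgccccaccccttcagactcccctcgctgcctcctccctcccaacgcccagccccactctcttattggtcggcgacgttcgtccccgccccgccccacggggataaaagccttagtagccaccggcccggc
Rgs2: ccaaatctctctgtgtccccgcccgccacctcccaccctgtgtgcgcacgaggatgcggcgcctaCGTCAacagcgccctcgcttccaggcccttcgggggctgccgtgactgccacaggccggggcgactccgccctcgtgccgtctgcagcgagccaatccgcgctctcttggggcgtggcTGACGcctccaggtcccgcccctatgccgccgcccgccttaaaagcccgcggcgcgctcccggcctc
The Rgs2 window, with 72.4% G and C, held the core in both orientations, 67 to 63 bases before the start and, on the other strand, 185 to 181 bases before it. The Rgs16 window, with 66.4% G and C, held none of the 3 motifs. These are matches of letters, and binding was not measured.

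Rgs4, an R4 member known from brain and heart, was at 9.62, 15.65, 10.76 and 13.88 FPKM in ob/+ and at 13.55, 19.37, 19.22 and 13.45 FPKM in ob/ob. The groups overlapped and the log2 fold change of 0.37 ± 0.16 (SE) missed the threshold (limma adjusted p = 0.109). It passed without ob/+ 2 (0.48, limma adjusted p = 0.0279) and when scaled without the 10 most abundant genes (0.48, limma adjusted p = 0.0124).

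Rgs8 and Rgs1 lay below the filter, and their groups did not overlap. Rgs8, the neighbour of Rgs16 on chromosome 1 (153653025 to 153700323, plus strand), was at 0.26, 0.21, 0.24 and 0.22 FPKM in ob/+ and at 0.48, 0.52, 0.95 and 0.5 FPKM in ob/ob. Rgs1, known from B lymphocytes, was at 0.17, 0.09, 0.22 and 0.04 FPKM in ob/+ and at 0.25, 1.4, 1.52 and 1.04 FPKM in ob/ob, where ob/ob 1 stayed near the ob/+ level. With no filter, Rgs1, Rgs8 and Gng7 were called too (log2 fold changes 0.81, 0.38 and -0.26, limma adjusted p = 0.0255, 0.0115 and 0.0445).

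Lymphocyte markers did not move as 1 group. The B cell gene Ms4a1, like Rgs1 lowest of the ob/ob libraries in ob/ob 1, was at 0.9, 0.03, 0.42 and 0.05 FPKM in ob/+ and at 0, 1.67, 6.04 and 4.17 FPKM in ob/ob. Cd79a, the B cell receptor component that was the most abundant marker, was at 15.1, 7.81, 16.8 and 11.59 FPKM in ob/+, where Rgs1 was near 0, and at 2.18, 6.34, 17.62 and 10.66 FPKM in ob/ob. The 8 markers summed to 8.99 to 19.8 FPKM in ob/+ and 2.85 to 37.4 in ob/ob, with 4 of them at 0 in some library and neither of the 2 tested called (limma). Their part in the Rgs1 difference was not tested. The family members Rgs13 and Rgs18 reached at most 0.24 and 0.06 FPKM.

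**Figure D5:**
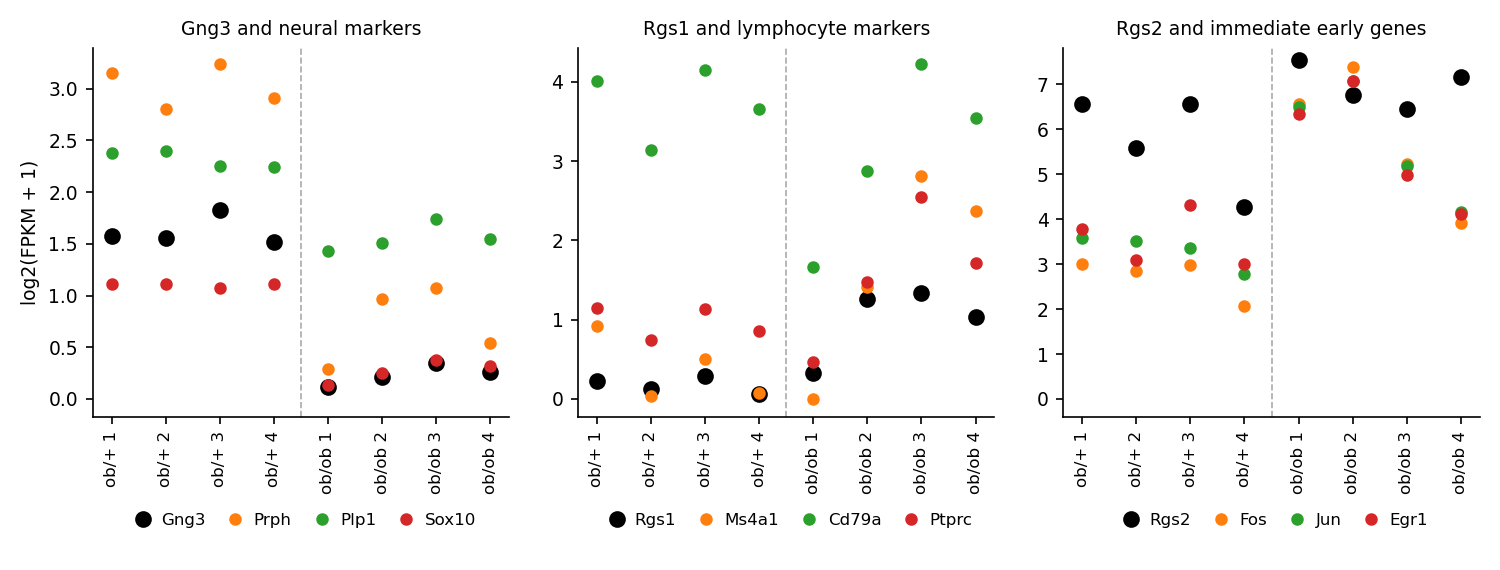
Log2(FPKM + 1) (y axes) in each library of Gng3, Rgs1 and Rgs2 (black) beside neural markers, lymphocyte markers and immediate early genes (colours); the dashed line parts ob/+ from ob/ob. Gng3 and Prph are both low in all 4 ob/ob libraries, Rgs1 is low with Ms4a1 in ob/ob 1 but not with Cd79a in ob/+, and Rgs2 stays high in ob/ob 4, where Fos is at 14.05 FPKM.

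R7 family proteins pair with Gnb5 and act on Gi/o α subunits, Rgs9 being known for ending the light response of photoreceptors together with transducin. Rgs9 was the one tested member of the family that changed. Rgs9 (chromosome 11, 109225355 to 109298129, minus strand) was at 13.31, 14.28, 14.82 and 10.92 FPKM in ob/+ and at 25.5, 23.49, 24.89 and 23.04 FPKM in ob/ob. The groups lay far apart, and the mean rose 1.82-fold, from 13.3 ± 1.73 to 24.2 ± 1.16 FPKM (SD, n = 4 each). Its log2 fold change was 0.82 ± 0.11 (SE; limma adjusted p = 5.65e-06).

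Rgs11 (chromosome 17, 26202951 to 26211324, plus strand), the most abundant R7 member, was at 45.41, 44.83, 43.51 and 25.59 FPKM in ob/+ and at 39.04, 39.73, 42.56 and 31.95 FPKM in ob/ob. Its groups overlapped (log2 fold change -0.03 ± 0.17 SE, limma adjusted p = 0.937), and the sign turned under 3 other scalings. Rgs7 was at 7.57 ± 0.219 and 7.93 ± 0.522 FPKM (SD, n = 4 each; limma adjusted p = 0.765). The ratio of Rgs9 to Rgs11, a pair chosen after the values were seen, was 0.293, 0.319, 0.341 and 0.427 in ob/+ and 0.653, 0.591, 0.585 and 0.721 in ob/ob. Rgs9 took 22.1% ± 1.99 of the summed R7 level in ob/+ and 34.4% ± 2.04 in ob/ob (SD, n = 4 each).

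The anchors that hold R7 proteins at the membrane and the fourth R7 gene, Rgs6, did not show a called change. Rgs7bp was at 4.62 ± 1.77 and 4.18 ± 0.795 FPKM (SD, n = 4 each; limma adjusted p = 0.862), and Rgs9bp, the anchor of Rgs9 in photoreceptors, reached at most 0.15 FPKM. Of the photoreceptor genes in the set, Gnat2 and Rgs9 were above 9 FPKM in every library, while Gnat1, Gnb3 and Rgs9bp stayed under 0.2 FPKM in every library.

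No R12 or RZ gene was called. Rgs10 and Rgs12, of the R12 family, were at 2.9 ± 0.57 and 2.99 ± 0.735 FPKM and at 1.51 ± 0.253 and 1.27 ± 0.254 FPKM in ob/+ and ob/ob (SD, n = 4 each; limma adjusted p = 0.927 and 0.453). The RZ genes Rgs17 and Rgs19, which act mainly on Gz and Gi α subunits, averaged between 2.06 and 2.73 FPKM in both groups (limma adjusted p = 0.543 and 0.785). Rgs14, Rgs20 and Rgs22 lay below the filter.

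Beyond the subunits, other parts of the pathway were described by lists chosen by their roles. Of 17 tested regulators of the G protein cycle (receptor kinases, arrestins and nucleotide exchange regulators) 2 were higher and 2 lower, with a median log2 fold change of -0.10. This count and that of the effectors lie near the 18.8% of all tested genes called, and nothing is read from them about either list. Nucb2, a calcium-binding protein that is also the precursor of nesfatin, rose from 120 ± 17.9 to 383 ± 44.9 FPKM, and its relative Nucb1 rose from 107 ± 12.4 to 157 ± 12.5 FPKM (SD, n = 4 each; limma adjusted p = 5.73e-11 and 0.000156). The receptor kinase Grk5 fell from 7.97 ± 0.818 to 4.03 ± 0.343 FPKM, and Gpsm1, which binds free Gi α subunits, fell from 22.2 ± 1.42 to 16.5 ± 1.93 FPKM (SD, n = 4 each; limma adjusted p = 1.18e-05 and 0.00844).

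Of 29 effectors with values 16 were tested, of which 1 was higher and 2 were lower, with a median of -0.09. Below the filter and untested, Adcy1, Adcy2, Adcy3, Adcy5, Adcy8 and Kcnj3 were lower in ob/ob without overlap. The groups of the other untested effectors overlapped. Pik3r5, the adaptor of the phosphoinositide kinase that β and γ pairs activate, rose from 1.19 ± 0.316 to 2.71 ± 0.426 FPKM. Plcb4, a phospholipase driven by Gq, fell from 6.17 ± 1.15 to 4.35 ± 0.793 FPKM and Arhgef12, a RhoA exchange factor driven by G12/13, from 21.1 ± 4.75 to 14.7 ± 1.63 FPKM (SD, n = 4 each; limma adjusted p = 0.000147, 0.0361 and 0.0271 in this order). The groups of Plcb4 and Arhgef12 overlapped, with ob/+ 4 (4.6 and 14.04 FPKM) inside the ob/ob range.

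Islet receptors showed calls by limma on each coupling list, with log2 fold changes in parentheses. Among 8 tested Gs-coupled receptors, Vipr2 and Ptger4 were higher (0.98 and 0.71) and Vipr1 lower (-0.66), with a median of -0.06. Ptger4 was let into the test by the ob/ob libraries alone, so its call is no support for a difference. Vipr2 reached 1 FPKM in ob/+ only in ob/+ 1 (1.01), so its entry too rested mainly on ob/ob. Among 10 Gi/o-coupled receptors, the somatostatin receptor Sstr2, the cannabinoid receptor Cnr1 and the adenosine receptor Adora1 were lower (-1.19, -1.05 and -0.90). The galanin receptor Galr2, known also to couple to Gq, was higher (0.65), and the median was -0.10. Sstr2 and Cnr1 were let into the test by the ob/+ libraries alone, so their calls are no support either. Among 14 Gq/11-coupled receptors, the fatty acid receptor Ffar4, the nucleotide receptor P2ry6 and the protease receptor F2rl1 were lower (-1.27, -1.31 and -0.51) and Adgrg1, known also for coupling to G12/13, was higher (0.37), with a median of -0.04. The groups of F2rl1 overlapped, with ob/+ 4 (4.23 FPKM) inside the ob/ob range. These counts of 3, 4 and 4 called receptors stand beside the same 18.8%, and nothing is read from them about the lists.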

How the data were processed

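Islet RNA was measured in 8 libraries, grouped by labelled genotype. The deposited values were read as FPKM from their form, since no label or header names a unit. The submitters' processing notes list Trimmomatic 0.36, DESeq2 1.20.0, mm10 and GRCm38 with no role. Aligner, quantifier and strandedness: not given in the sources used here. FPKM is relative to the library total, so other genes read lower where insulin or acinar transcripts take more of it.

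Of 20715 listed genes, 3314 had no value, Lep among them, so the genotype could not be checked by that transcript. A gene was tested if 4 or more libraries had it at 1 FPKM or above. The test was limma 3.58.1 (R 4.3.3, statmod 1.5.0) on log2(FPKM + 1) with a trended, robust eBayes step. It was two-sided, was adjusted over all tested genes by Benjamini-Hochberg, and was checked on simulated data. The acinar share was compared with SciPy 1.17.1. Fold values are ratios of mean FPKM. Correlations of log2 values were 0.978 to 0.993 within and 0.955 to 0.965 between groups.

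Positions come from GENCODE (GRCm38), in which all 51 genes had 1 match, and promoters from RefSeq (GRCm38.p6). Genes and lists were chosen with earlier results of these data known. Named were called genes averaging 1 FPKM or more, the most abundant of each class, their neighbours within a class, and called members of each list. Other genes and all ratios were chosen after their values were seen.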

Additional observations from a re-analysis of the deposited data

Results flagged for a closer look

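Among the 35 genes averaging 1 FPKM or more, 5 of 70 groups of 4 libraries held a library far from the rest, where chance flags about 1 in 20 groups. All 5 lay in ob/+. Rgs11 was at 25.59 FPKM in ob/+ 4 (the others 43.5 to 45.4) and Gnb5, partner of R7 proteins, at 7.16 FPKM in the same library (8.56 to 8.76), the one with the largest acinar share. Gng3 was at 2.56 FPKM in ob/+ 3 (1.87 to 1.98) and Gnat2 at 9.22 FPKM there (9.59 to 9.66). Rgs10 was at 2.05 FPKM in ob/+ 2 (3.11 to 3.26).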

How the results depend on the processing

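Of 230 values of the 12 changed genes under the alternatives, 216 kept call and direction, 14 lost the call (Gnai1, Rgs16 and Gnb1) and 0 turned in sign. Gna14 and Gng3 gave a value under 15 of 20 alternatives, the others under all. All tested genes called numbered 2208, and 3429 with median centring, 3406 with upper-quartile scaling, 7456 with the acinar markers left out of the scaling, and 4000 without the acinar-richest library of each genotype, an alternative added after seeing the data. Leaving out 1 library gave 1434 (without ob/+ 1) to 4832 (without ob/+ 4). Of the set, 12 genes were called, 24 with the acinar markers left out, and 13 without the acinar-richest libraries. These 13 hold 10 of the 12, and the others, Gna14 and Gng3, fell below the filter there and were not tested. With 1 library left out, 9 (without ob/+ 3 or ob/ob 2) to 18 (without ob/+ 4) were called. In those fits Gng3 was untested when an ob/+ library was left out, and Gna14 when an ob/ob library was. The replicate block called 2674 genes and 14 of the set, all 12 among them; the labelled numbers share no stated origin. Deviations of same-numbered libraries correlated at -0.22, 0.212, 0.172 and 0.124, and 2 of 4 ob/+ libraries correlated best with their own number.

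With the acinar markers left out, summed levels had ratios of 0.643 (Gi/o α), 0.725 (Gq/11 α), 0.745 (β), 0.878 (γ) and 0.953 (R7), against 0.789, 0.886, 0.913, 1.08 and 1.16. That scaling also turned the log2 fold changes of uncalled genes to -0.14 (Gna12), -0.27 (Gnb2), -0.01 (Gnb4), -0.20 (Rgs10), -0.09 (Rgs17) and -0.21 (Rgs7). The acinar covariate gave -0.05 (Gna12) and -0.06 (Gnb2), and dropping the acinar-richest libraries -0.02 and -0.01. With the 10 most abundant genes left out, values were 0.00 (Gna13), 0.01 (Gng11), 0.03 (Gng5), 0.09 (Rgs11), 0.03 (Rgs19) and 0.02 (Rgs7bp). Median centring gave 0.04 (Rgs11), 0.01 (Rgs19) and 0.00 (Rgs7bp), and upper-quartile scaling 0.05 (Rgs11). Leaving out 1 library, values ran from -0.03 to 0.22 (Gna12), -0.02 to 0.09 (Gnb2), -0.09 to 0.17 (Rgs10), -0.22 to 0.06 (Rgs11), -0.12 to 0.03 (Rgs19) and -0.30 to 0.10 (Rgs7bp). In all 34 values of 12 uncalled genes turned; the cause was not tested. Absolute depth is unknown, so genes near 0 carry an error that is not given.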
